A study of Mus musculus with 12 samples.

Results

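The meninges and the arachnoid barrier were examined through 32 genes, of 55536 genes counted, that are known from meningeal fibroblasts and arachnoid barrier cells and that do not encode extracellular matrix components. They were chosen by gene name, with earlier results of these data known. They comprised 7 solute transporters, 8 transcription factors, 7 fibroblast surface and secreted proteins, 2 junction proteins and 8 genes of other roles. RNA of cerebellum and cerebral cortex was sequenced at 1 month of age in WT mice and in *Snx14*-KO mice, with 3 libraries per tissue and genotype and 12 in all. The *Snx14*-KO mice are homozygous for a frameshift 1 bp deletion in *Snx14*, made with CRISPR/Cas9 in C57BL/6J embryos. The deletion is carried in every cell of the body and comes from 1 line, and a part of the homozygous embryos do not survive, so the mice sampled are survivors. Both tissues carry the mouse numbers 1, 2 and 3 in each genotype. Nothing beyond the mouse number says that the libraries of a group come from separate animals, so p-values measure the spread between these libraries.

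The meninges wrap the brain and are built from fibroblasts, blood vessels and resident macrophages. Their arachnoid layer holds epithelium-like barrier cells, joined by cadherins and connexins, that separate the cerebrospinal fluid from the dura and carry transporters for organic anions, organic cations and amino acids. Forkhead, T-box and other developmental transcription factors mark these cells. They are few in a dissected brain sample, so their transcripts are read here from bulk tissue, where fewer cells of a type and less RNA per cell cannot be told apart.

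The upstream sequences of members from the main groups are shown first because forkhead, T-box and TWIST-family factors are themselves members. RefSeq start sites (GRCm38.p6) matched 25 of the 32 genes. The 250 bases before the start were searched on both strands for TGTTTAC, a forkhead core, for GGTGTGA, a T-box site, and for CAGATG, an E-box of the kind bound by TWIST-family factors. The sequences of the organic anion transporters *Slc22a6* (chr19:8617746-8617995, plus strand) and *Slc22a8* (chr19:8592932-8593181, plus strand), which are neighbouring genes, and of the factors *Tbx18* (chr9:87731261-87731510, minus strand) and *Foxc1* (chr13:31806396-31806645, plus strand) are printed 5′ to 3′, with the E-box in capitals.
Slc22a6: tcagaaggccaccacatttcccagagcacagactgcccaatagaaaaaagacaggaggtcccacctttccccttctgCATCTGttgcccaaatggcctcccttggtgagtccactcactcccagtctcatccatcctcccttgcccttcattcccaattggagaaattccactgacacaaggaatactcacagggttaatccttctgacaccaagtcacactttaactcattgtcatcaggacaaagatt
Slc22a8: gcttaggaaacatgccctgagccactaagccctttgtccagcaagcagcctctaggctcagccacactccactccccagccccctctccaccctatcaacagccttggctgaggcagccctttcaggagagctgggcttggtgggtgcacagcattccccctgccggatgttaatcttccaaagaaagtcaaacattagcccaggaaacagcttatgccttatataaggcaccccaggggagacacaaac
Tbx18: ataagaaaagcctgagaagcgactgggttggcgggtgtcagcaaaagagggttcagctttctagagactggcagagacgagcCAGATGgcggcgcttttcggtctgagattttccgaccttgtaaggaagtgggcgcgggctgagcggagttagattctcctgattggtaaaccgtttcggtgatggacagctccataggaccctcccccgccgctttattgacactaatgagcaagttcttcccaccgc
Foxc1: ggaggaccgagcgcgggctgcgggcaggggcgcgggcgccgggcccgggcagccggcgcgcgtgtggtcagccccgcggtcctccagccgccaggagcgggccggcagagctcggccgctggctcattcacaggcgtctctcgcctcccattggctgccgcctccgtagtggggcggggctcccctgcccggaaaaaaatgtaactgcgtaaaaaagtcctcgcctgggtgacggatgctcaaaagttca

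The E-box was present upstream of 3 of the 25 members, against 14.4% of all 32851 upstream sequences of this length. A member counted once if any of its sequences held the letters, while the share is over single sequences. It began 168 bases before the start of *Tbx18* and 231 bases before that of *Serpinf1*, and its reverse complement began 173 bases before that of *Slc22a6*. The forkhead core was found upstream of 0 of 25 members (3.17% of all sequences) and the T-box site upstream of 0 of 25 (3.33% of all sequences). The sequence before *Foxc1* was rich in GC, at 70.8% with 29 CpG dinucleotides, where the median over all sequences was 52.4% GC. The start used for *Slc22a8* lies 1928 bases downstream of the first base of the gene in GENCODE. Those used for *Bnc2*, *Islr* and *Nupr1* lie 65078, 45752 and 5391 bases downstream. A match, or the lack of one, describes these letters alone.

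Counts on genes summed to 16672589 to 19887427 per library. *Snx14* itself was at 63.9, 63.6 and 67 CPM (the normalised read count, scaled to a common library size by edgeR's TMM method over the 12 libraries) in WT and 10.4, 10.9 and 11.2 in *Snx14*-KO cerebella, and at 53.6, 55.1 and 59.8 in WT and 8.5, 7.95 and 7.69 in *Snx14*-KO cortices, so every library matched its genotype label. The cerebellar granule cell gene *Gabra6* was at 482 CPM or more in every cerebellum and at most at 2.02 CPM in every cortex. Markers of the choroid plexus epithelium differed widely between cerebella, and *Ttr*, which encodes transthyretin and is that epithelium's main transcript, was at 53.2, 2516 and 6858 CPM in WT and 1872, 3008 and 882 CPM in *Snx14*-KO cerebella. The skin keratin gene *Krt5* was at 0 in 11 of the 12 libraries.

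In WT tissue the members ran from well measured to barely detected. Per kb of exon, which lets levels of different genes be compared, *Asgr1* stood highest in WT cerebellum at 10.7 ± 0.575 CPM per kb (SD, n = 3). *Asgr1* encodes a lectin receptor best known from hepatocytes. The order went on with *Slc13a3*, a sodium-dependent dicarboxylate transporter, at 5.5 ± 0.571 CPM per kb (SD, n = 3) and *Slc6a20a*, a proline transporter, at 4.46 ± 1.72 CPM per kb (SD, n = 3). *Asgr1* was the only member whose 3 values did not overlap those of the next gene in the order. In WT cortex *Islr*, a surface protein of fibroblasts, stood highest at 6.0 ± 0.371 CPM per kb (SD, n = 3) and did not overlap the next gene. *Thbd*, which encodes the anticoagulant receptor thrombomodulin, followed at 3.62 ± 0.308 CPM per kb (SD, n = 3), and *Aebp1*, a secreted collagen-binding protein, at 2.97 ± 0.483 CPM per kb (SD, n = 3). All further neighbours in the cortical order overlapped. The transcription factors lay in the lower part of both orders, with per-kb means of 0.0359 (*Bnc2*) to 0.862 (*Foxc2*) in WT cerebellum.

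**Figure D1:**
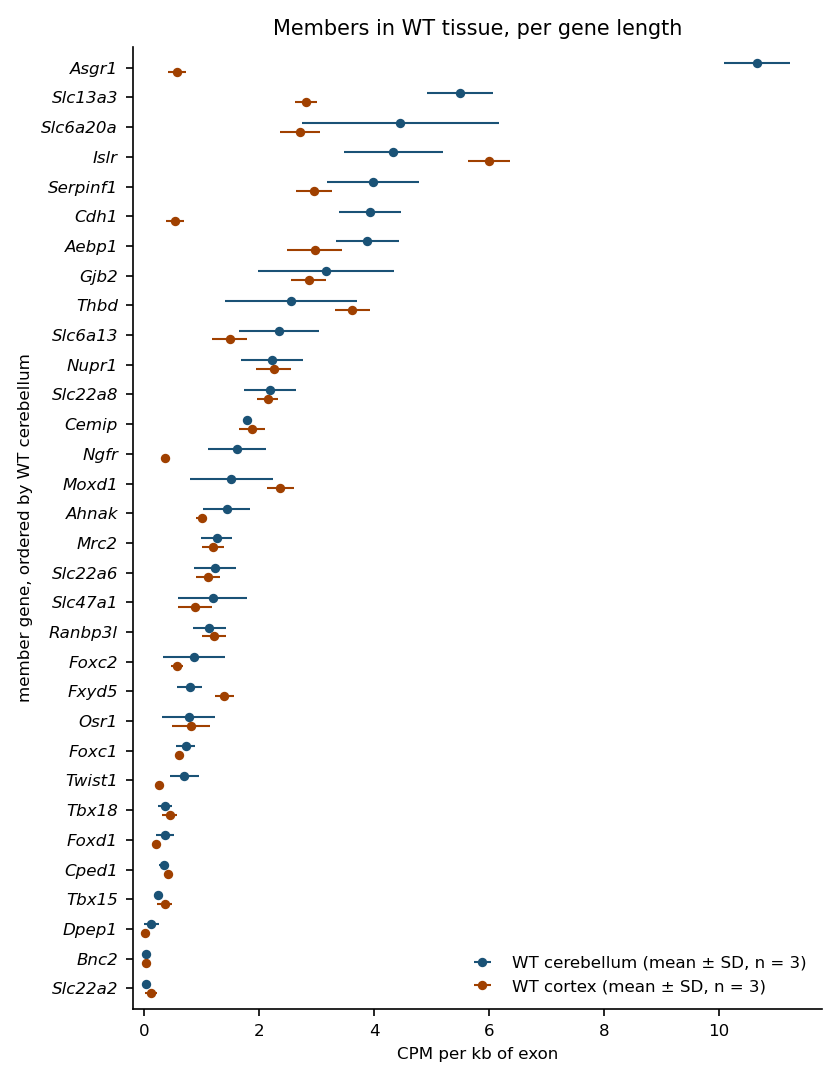
Level of each of the 32 members in WT cerebellum and WT cortex, in CPM per kb of exon (horizontal axis), with points for the mean of 3 libraries and bars for the SD. *Asgr1* is far to the right in cerebellum and near the left edge in cortex. *Cdh1* is also much higher in cerebellum than in cortex, while most members are at similar levels in both tissues.

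The first comparison asks how the loss of *Snx14* bears on these genes in the cerebellum, the tissue on which the study is centred. Most members were higher in *Snx14*-KO cerebella, with similar medians for transporters and transcription factors, and none passed the thresholds of edgeR's quasi-likelihood test (adjusted p under 0.05 by the Benjamini-Hochberg method over all genes tested and a log2 fold change beyond 0.5). Of the 32 members, 31 had enough counts to be tested, and 29 of these had a log2 fold change above 0 (49.9% of all 18201 genes tested). An unadjusted p under 0.05 was reached by 24, all higher, where 5.78% of all genes did so in that direction and 2.37% in the other. In 20 members every *Snx14*-KO value exceeded every WT value, against 6.22% of all genes, and in 1, *Asgr1*, they lay below (6.32% of all genes). The median log2 fold change over the 31 members was 1.11, against -0.00062 over all genes tested. Because the members were chosen with earlier results of these data known, these shares describe the list and are not an independent test. Called by edgeR were 0 members (0% of all genes in the higher direction), and the smallest adjusted p was 0.0634. DESeq2 called 13 members on the same counts and thresholds (0.846% of all genes were called higher), namely *Slc22a6*, *Slc22a8*, *Slc6a13*, *Slc13a3*, *Slc47a1*, *Foxc1*, *Osr1*, *Islr*, *Mrc2*, *Aebp1*, *Cped1*, *Ranbp3l* and *Thbd*. Without *Snx14*-KO replicate 2, edgeR called 9 members (1.31% of all genes), without WT replicate 2 it called 1, *Thbd* (0.0481% of all genes), and with no filter on low counts it called 20 (1.05% of all genes).

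**Figure D2:**
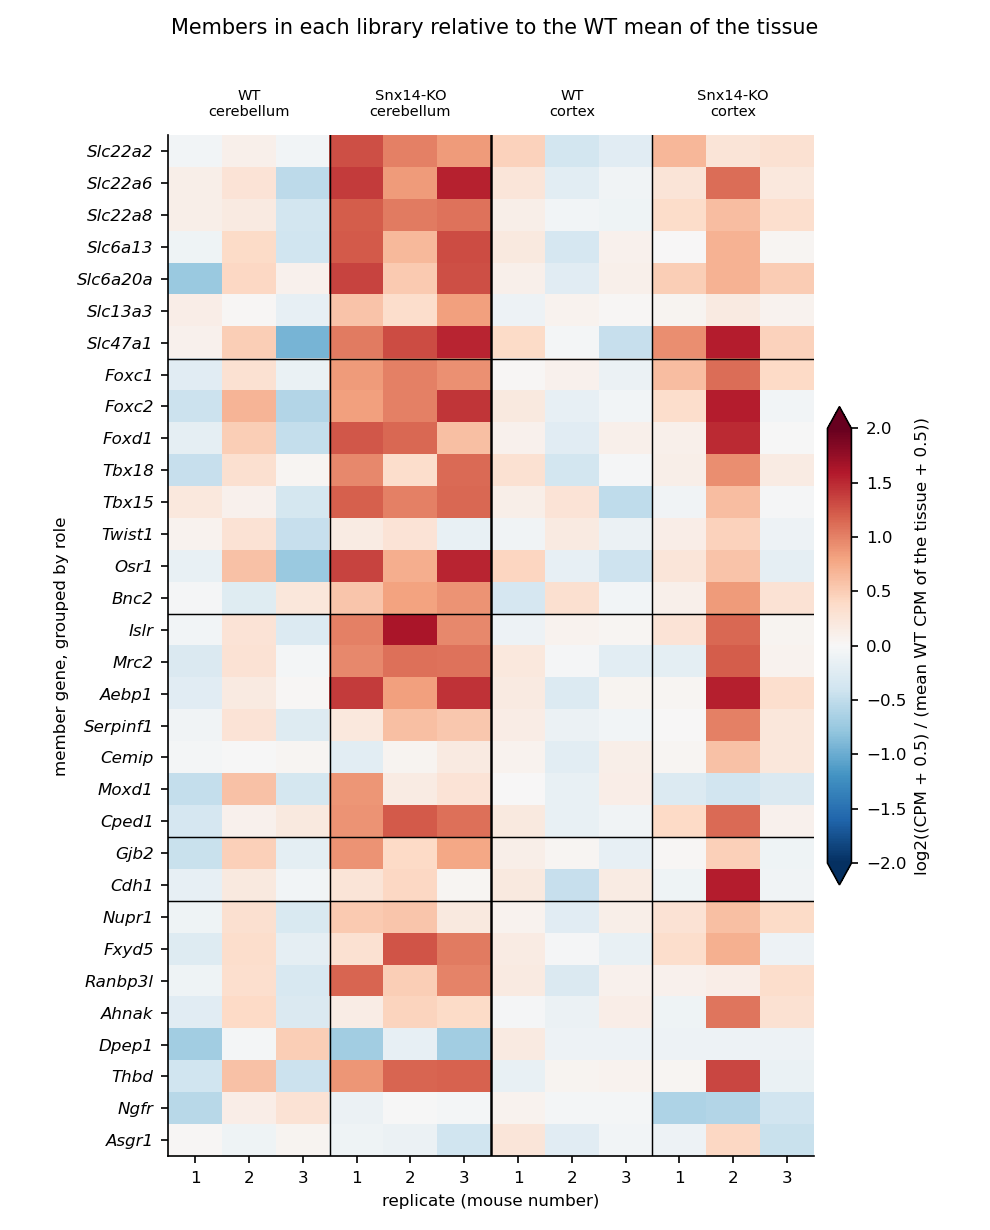
Log2 ratio of each library to the WT mean of its tissue, after adding 0.5 CPM, for the 32 members (rows, grouped by role) in the 12 libraries (columns, grouped by tissue and genotype). The 3 *Snx14*-KO cerebella are high for most transporters and transcription factors, and among the cortices *Snx14*-KO replicate 2 stands out.

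All 7 transporters were higher in *Snx14*-KO cerebella without overlap of the groups, with a median log2 fold change of 1.18. *Slc22a8* (ENSMUSG00000063796.9, chr19:8591254-8611835), an organic anion transporter of brain barriers, was at 9.34, 9.81 and 6.55 CPM in WT and 20.5, 18.2 and 18.7 CPM in *Snx14*-KO cerebella. Every *Snx14*-KO value was well above the highest WT value (log2 fold change 1.18, SE 0.157, adjusted p = 0.0634 by edgeR). This was the only member that edgeR called when all 12 libraries shared 1 fit (adjusted p = 0.00801 after Benjamini-Hochberg adjustment, 0.132% of all genes called higher). Its neighbour *Slc22a6* (ENSMUSG00000024650.5, chr19:8618039-8628299), which exchanges organic anions against dicarboxylates, was at 5.39, 6.06 and 3.28 CPM in WT and 13.8, 9.26 and 15.2 CPM in *Snx14*-KO cerebella. The groups were apart but the *Snx14*-KO values spread widely, and the edgeR test gave log2 fold change 1.40, SE 0.252, adjusted p = 0.145. The organic cation efflux pump gene *Slc47a1* was at 4.34, 5.89 and 1.88 CPM in WT and 8.84, 10.6 and 12.6 CPM in *Snx14*-KO cerebella. WT replicate 3 was the lowest library, and the edgeR test gave log2 fold change 1.43, SE 0.332, adjusted p = 0.236.

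Among the carriers of amino acids and dicarboxylates, log2 fold changes ran from 0.62 to 1.16. *Slc6a13*, a transporter of GABA and taurine, was at 6.39, 9.0 and 5.05 CPM in WT and 16.6, 10.9 and 17.5 CPM in *Snx14*-KO cerebella (log2 fold change 1.16, SE 0.24, adjusted p = 0.193, edgeR). *Slc6a20a* was at 10.7, 24.5 and 19.4 CPM in WT and 47.1, 26.4 and 45.1 CPM in *Snx14*-KO cerebella. *Snx14*-KO replicate 2 lay only just above the highest WT library, and edgeR gave log2 fold change 1.13, SE 0.295, adjusted p = 0.312. Of its exon bases 14.3% overlap other genes on the opposite strand, and *Slc6a20b* is a close copy, so part of its count is uncertain. *Slc13a3*, which had the highest per-kb level of the transporters in WT cerebellum, was at 31.4, 29.1 and 25.5 CPM in WT and 42.6, 36.7 and 51.2 CPM in *Snx14*-KO cerebella. It had the smallest fold change of the 7 (log2 fold change 0.62, SE 0.129, adjusted p = 0.194, edgeR). *Slc22a2*, an organic cation transporter, was barely counted, with 1, 2 and 1 read pairs in WT and 19, 12 and 10 in *Snx14*-KO cerebella. The 4 pairs in all against 41 give a ratio of 9.61 after scaling for library totals (95% counting interval 3.48 to 36.95, counting error only), and its edgeR adjusted p was 0.145. 

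**Figure D3:**
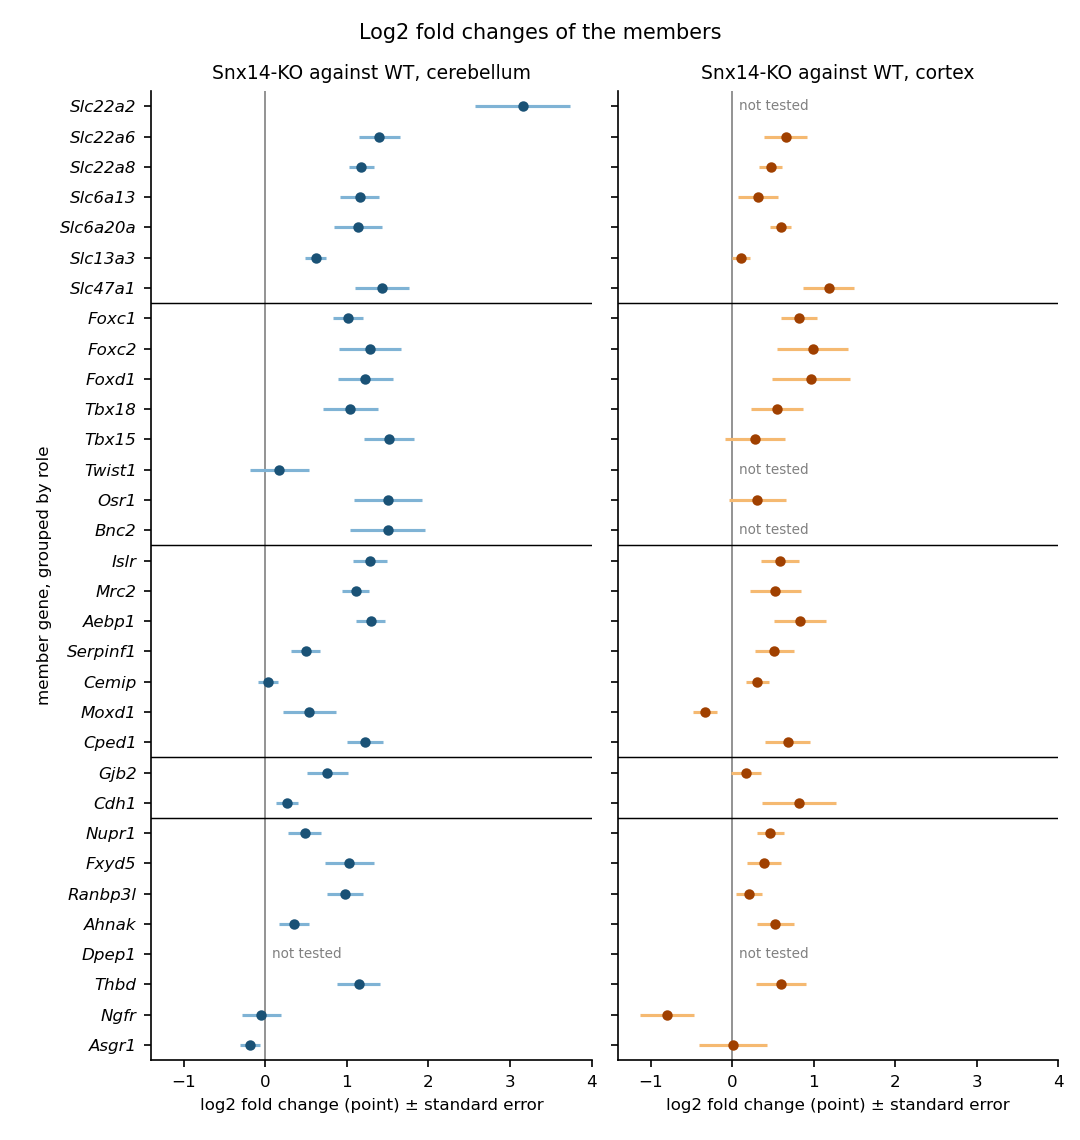
Log2 fold change of *Snx14*-KO against WT for each member in cerebellum (left) and cortex (right), with points for the edgeR estimate and bars for 1 standard error, grouped by role. In cerebellum the transporters and all transcription factors but *Twist1* lie near or right of 1, apart from *Slc13a3* at 0.62, while in cortex most points lie between 0 and 1.

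All 8 transcription factors were higher in *Snx14*-KO cerebella, 7 of them without overlap, with a median log2 fold change of 1.25. *Foxc1* (ENSMUSG00000050295.4, chr13:31806633-31812476), a forkhead factor needed to form the meninges, was at 3.56, 5.31 and 3.81 CPM in WT and 7.98, 8.99 and 8.4 CPM in *Snx14*-KO cerebella. The *Snx14*-KO values lay close together and above all WT values (log2 fold change 1.01, SE 0.185, adjusted p = 0.145, edgeR). Its relative *Foxc2* was at 1.61, 4.04 and 1.4 CPM in WT and 4.54, 5.24 and 7.15 CPM in *Snx14*-KO cerebella. WT replicate 2 nearly reached the lowest *Snx14*-KO library (log2 fold change 1.28, SE 0.385, adjusted p = 0.383, edgeR). A further forkhead gene, *Foxd1*, was at 1.56, 2.77 and 1.18 CPM in WT and 5.02, 4.69 and 3.03 CPM in *Snx14*-KO cerebella (log2 fold change 1.23, SE 0.338, adjusted p = 0.34, edgeR). All 3 forkhead genes thus had values apart between the genotypes, at low levels.

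The T-box gene *Tbx18* (ENSMUSG00000032419.8, chr9:87702800-87731260), which is also used by pericytes and smooth muscle, was at 1.11, 2.25 and 1.77 CPM in WT and 3.82, 2.32 and 4.33 CPM in *Snx14*-KO cerebella. The gap between the groups was small (log2 fold change 1.04, SE 0.337, adjusted p = 0.423, edgeR), and 20.6% of its exon bases overlap a gene on the opposite strand. *Tbx15* was at 1.11, 0.981 and 0.591 CPM in WT and 2.68, 2.32 and 2.6 CPM in *Snx14*-KO cerebella, with a wider gap (log2 fold change 1.51, SE 0.304, adjusted p = 0.178, edgeR). *Osr1*, a zinc finger factor of mesenchyme, was at 1.39, 2.65 and 0.752 CPM in WT and 4.88, 2.98 and 5.52 CPM in *Snx14*-KO cerebella. WT replicate 2 came close to *Snx14*-KO replicate 2 (log2 fold change 1.5, SE 0.418, adjusted p = 0.343, edgeR). *Bnc2*, a zinc finger factor of fibroblasts, had 5, 3 and 8 read pairs in WT and 14, 16 and 18 in *Snx14*-KO cerebella (log2 fold change 1.5, SE 0.458, adjusted p = 0.39, edgeR). *Twist1*, a helix-loop-helix factor of mesenchyme, was the exception, at 1.22, 1.5 and 0.698 CPM in WT and 1.34, 1.49 and 0.975 CPM in *Snx14*-KO cerebella. Its *Snx14*-KO values lay within the WT range (log2 fold change 0.17, SE 0.365, adjusted p = 0.965, edgeR).

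Among the 7 surface and secreted proteins, 4 were higher without overlap and 3 overlapped. *Aebp1* (ENSMUSG00000020473.13, chr11:5861947-5872088) was at 13.5, 17.9 and 15.9 CPM in WT and 42.5, 28.3 and 44 CPM in *Snx14*-KO cerebella. Its lowest *Snx14*-KO library was still well above the highest WT library (log2 fold change 1.29, SE 0.177, adjusted p = 0.0634, edgeR). *Mrc2*, an endocytic collagen receptor, was at 6.78, 10.4 and 8.16 CPM in WT and 16.8, 18.7 and 18.5 CPM in *Snx14*-KO cerebella, and here the *Snx14*-KO libraries were nearly alike (log2 fold change 1.11, SE 0.163, adjusted p = 0.105, edgeR). *Islr* was at 11.2, 14.1 and 9.56 CPM in WT and 23.9, 37.2 and 23 CPM in *Snx14*-KO cerebella, with replicate 2 the highest (log2 fold change 1.28, SE 0.21, adjusted p = 0.134, edgeR). Of its exon bases, 6.74% are shared with *Islr2*. *Cped1*, a gene of little known function, was at 2.11, 3.0 and 3.28 CPM in WT and 5.64, 7.22 and 6.61 CPM in *Snx14*-KO cerebella (log2 fold change 1.22, SE 0.218, adjusted p = 0.145, edgeR), and 13.7% of its exon bases overlap a gene on the opposite strand.

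The other 3 had the smallest log2 fold changes of this role. *Serpinf1*, which encodes the secreted factor PEDF, was at 8.89, 11.5 and 7.79 CPM in WT and 10.9, 14.5 and 13.9 CPM in *Snx14*-KO cerebella (log2 fold change 0.49, SE 0.178, adjusted p = 0.473, edgeR). *Moxd1*, a monooxygenase-like protein, was at 3.34, 7.5 and 3.7 CPM in WT and 9.37, 5.51 and 5.96 CPM in *Snx14*-KO cerebella (log2 fold change 0.54, SE 0.326, adjusted p = 0.776, edgeR). *Cemip*, a protein that binds and breaks down hyaluronan, was at 21.3, 21.8 and 22.6 CPM in WT and 18.9, 22.9 and 24.8 CPM in *Snx14*-KO cerebella and had a log2 fold change of 0.033. It spread little across the 6 cerebella.

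The junction genes overlapped between the genotypes. *Gjb2*, the connexin 26 gene, was at 5.45, 10.8 and 6.6 CPM in WT and 14.7, 10.2 and 13.4 CPM in *Snx14*-KO cerebella (log2 fold change 0.76, SE 0.25, adjusted p = 0.43, edgeR). WT replicate 2 exceeded *Snx14*-KO replicate 2. *Cdh1*, the E-cadherin gene and a marker of arachnoid barrier cells, was at 16, 20.7 and 17.2 CPM in WT and 21.5, 24.3 and 18.6 CPM in *Snx14*-KO cerebella (log2 fold change 0.27, SE 0.138, adjusted p = 0.71, edgeR). 

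The 8 remaining members were mixed. *Thbd* (ENSMUSG00000074743.4, chr2:148404466-148408188), also a gene of endothelium, was at 7.12, 14.4 and 6.93 CPM in WT and 18, 22 and 22.2 CPM in *Snx14*-KO cerebella, without overlap (log2 fold change 1.14, SE 0.264, adjusted p = 0.232, edgeR). *Ranbp3l*, a Ran-binding protein, was at 7.28, 9.92 and 6.12 CPM in WT and 18, 11.1 and 16 CPM in *Snx14*-KO cerebella, also without overlap (log2 fold change 0.97, SE 0.221, adjusted p = 0.225, edgeR). *Fxyd5*, a regulator of the sodium pump, was at 2.72, 4.39 and 2.9 CPM in WT and 4.25, 8.66 and 7.37 CPM in *Snx14*-KO cerebella, and *Snx14*-KO replicate 1 fell within the WT range (log2 fold change 1.03, SE 0.297, adjusted p = 0.359, edgeR). *Nupr1*, a stress-responsive nuclear protein, and *Ahnak*, a large scaffold protein, overlapped, with log2 fold changes of 0.48 and 0.35. *Ngfr*, the p75 neurotrophin receptor gene, was at 3.61, 6.17 and 6.93 CPM in WT and 5.12, 5.51 and 5.42 CPM in *Snx14*-KO cerebella, with a log2 fold change of -0.048. *Asgr1* was the single member lower without overlap, at 17.3, 15.9 and 17.7 CPM in WT and 15.9, 15.5 and 12.7 CPM in *Snx14*-KO cerebella. The size of that difference was small (log2 fold change -0.19, SE 0.121, adjusted p = 0.79, edgeR). *Dpep1*, a membrane dipeptidase gene, had at most 0.64 CPM in any library and was not tested.

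The 24 other genes of meningeal fibroblasts and arachnoid cells, largely matrix, retinoid and BMP genes, leaned the same way. In cerebellum 23 of the 24 had a log2 fold change above 0, 18 at an unadjusted p under 0.05, and 13 did not overlap, with a median of 0.78. Of all genes tested, 49.9% were above 0, 5.78% were higher at that p and 6.22% were higher without overlap. DESeq2 called 11 of the 24 (0.846% of all genes called higher) and edgeR called 0 (0%). *Ptgds*, the prostaglandin D synthase gene of arachnoid cells, was at 683, 715 and 468 CPM in WT and 1567, 1459 and 1632 CPM in *Snx14*-KO cerebella, and all 3 *Snx14*-KO values lay far above the highest WT value (log2 fold change 1.34, edgeR adjusted p = 0.0514). The 23 without *Ptgds* summed to 656, 958 and 956 CPM in WT and 1161, 1094 and 1158 CPM in *Snx14*-KO cerebella, which did not overlap either. *Col1a2*, a collagen gene, had a log2 fold change of 0.95 and *Aldh1a2*, the retinoic acid synthesis enzyme of meninges, had 1.47 (SE 0.197, edgeR adjusted p = 0.0634).

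**Figure D4:**
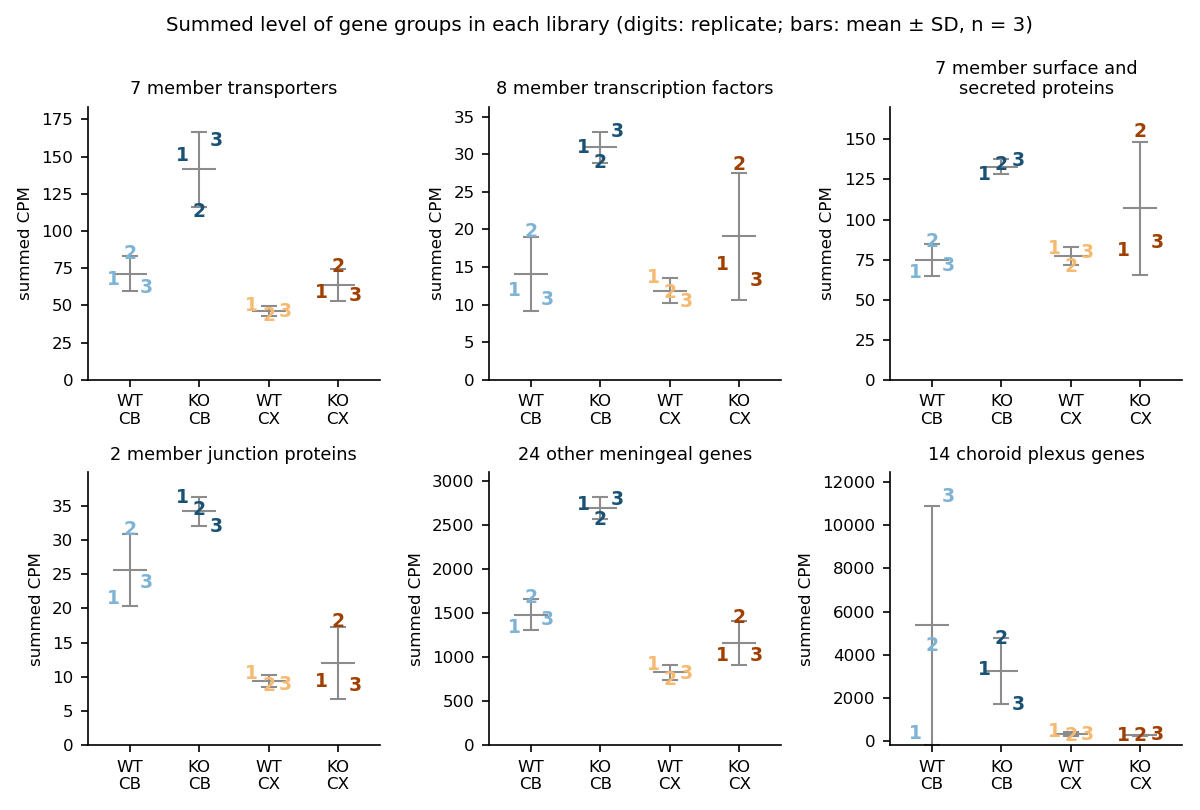
Summed CPM of 6 gene groups in each of the 12 libraries, with digits for the replicate and bars for the mean and SD (n = 3 libraries per group). The transporter, transcription factor, surface protein, junction protein and other meningeal panels show the 3 *Snx14*-KO cerebella above the 3 WT cerebella. The gap is small for the junction proteins, and the choroid plexus panel shows no such order.

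Summed over the members of a role, the transporters reached 67.6, 84.5 and 61.7 CPM in WT and 150.4, 113 and 161 CPM in *Snx14*-KO cerebella. The transcription factors summed to 11.8, 19.7 and 10.6 CPM in WT and 30.9, 28.9 and 33 CPM in *Snx14*-KO cerebella, and the surface and secreted proteins to 67.2, 86.1 and 71 CPM in WT and 128, 134 and 137 CPM in *Snx14*-KO cerebella. In these 3 roles the lowest *Snx14*-KO library was above the highest WT library. The junction pair summed to 21.5, 31.6 and 23.8 CPM in WT and 36.2, 34.5 and 32 CPM in *Snx14*-KO cerebella, a small gap. Members of other roles summed to 67.8, 96.2 and 69 CPM in WT and 101, 111 and 108 CPM in *Snx14*-KO cerebella, also without overlap. WT replicate 2 was the highest of the WT cerebella for 24 of 31 members with at least 30 read pairs in all.

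Markers of other cells of the brain surface and vessels were set beside these sums. Of all genes tested, 6.22% were higher in *Snx14*-KO cerebella without overlap. All 5 border macrophage genes were higher in *Snx14*-KO cerebella, 3 without overlap, with a median log2 fold change of 1.04 and sums of 5.17, 10.6 and 7.09 CPM in WT and 13, 15.3 and 19.4 CPM in *Snx14*-KO cerebella. The 10 brain endothelium genes had a median of 0.12 and summed to 260.0 to 297 CPM in WT and 273 to 337 CPM in *Snx14*-KO cerebella, and the 10 pericyte and smooth muscle genes had a median of 0.17 and summed to 158 to 204 CPM in WT and 221 to 234 CPM in *Snx14*-KO cerebella. Both medians are well under that of the members, while the pericyte and smooth muscle sums did not overlap between the genotypes. The 14 genes of the choroid plexus, an epithelium that also uses several of the member transporters, had a median of -0.72, with sums of 367, 4443 and 11319 CPM in WT and 3311, 4741 and 1681 CPM in *Snx14*-KO cerebella. Of the 14 genes, 0 had a log2 fold change above 0. The WT library with the highest choroid plexus sum, replicate 3, had the lowest summed transporters and was the lowest WT library for 6 of them. Replicate 1, with the lowest choroid plexus sum, was the lowest for 1, *Slc6a20a*, at 10.7 CPM against 24.5 and 19.4 CPM. The part of choroid plexus content in the result was not tested. The 7 microglia genes had a median of 0.47, with sums of 155 to 185 CPM in WT and 181, 179.8 and 363 CPM in *Snx14*-KO cerebella, so that only replicate 3 was above the WT range. All 8 astrocyte and Bergmann glia genes were higher in *Snx14*-KO cerebella, 4 without overlap, and they had a median of 0.27 and summed to 4767 to 5355 CPM in WT and 5399 to 6446 CPM in *Snx14*-KO cerebella. Among them *Gfap*, which encodes the intermediate filament of astrocytes, was at 276, 309 and 293 CPM in WT and 373, 442 and 912 CPM in *Snx14*-KO cerebella (log2 fold change 0.99, edgeR adjusted p = 0.358), and the groups did not overlap.

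The *Snx14*-KO cerebella also differed from each other in a forebrain marker. *Nrgn*, the neurogranin gene of forebrain neurons, was at 6.17, 4.33 and 1.99 CPM in WT and 122, 9.15 and 117 CPM in *Snx14*-KO cerebella (log2 fold change 4.33, edgeR adjusted p = 0.178). Replicates 1 and 3 were far above every WT library, and replicate 2 was slightly above. Replicate 2 was also the lowest of the 3 *Snx14*-KO cerebella for 5 of the 7 transporters, but for 2 of the 7 surface and secreted proteins, for 4 of which it was the highest. Over 31 members it was the lowest of the 3 for 12 and the highest for 11. In the cortices, where its cells are plentiful, *Nrgn* was at 1485 CPM or more. *Neurod6*, a transcription factor gene of forebrain excitatory neurons, was at 7.84, 8.37 and 7.79 CPM in WT and 7.79, 10.6 and 9.1 CPM in *Snx14*-KO cerebella, without that split. The part of these markers in the result was not tested. How much tissue surface each dissected sample held is not given, and the part of meningeal content in the result was not tested. The study names 2 sequencing sites for its RNA sequencing as a whole. Whether these libraries were split between them is not given, so site could not be set against genotype and its part was not tested.

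The second comparison asks the same of the cortex, with which the study compared the cerebellum. Members leaned higher in *Snx14*-KO cortices too, but less, and 1 library was the highest of the 6 for most of them. Of 28 members tested, 26 had a log2 fold change above 0 (50% of all 18255 genes tested), with a median of 0.52 against 8.2e-05 over all genes. An unadjusted p under 0.05 was reached by 12 that were higher (2.24% of all genes) and 2 that were lower, *Moxd1* and *Ngfr* (2.26% of all genes). The count of 12 was 4 without *Snx14*-KO replicate 2, 5 without WT replicate 2 and 8 to 17 without any other library, while the share of all genes ranged from 1.61% to 3.36%. The count of 2 was 1 without WT replicate 2 or *Snx14*-KO replicate 3 and 0 without any other library, by DESeq2 or with a replicate block. The groups did not overlap in 5 that were higher (4.57% of all genes), *Slc22a8*, *Slc6a20a*, *Slc47a1*, *Foxc1* and *Nupr1*, and in the same 2 that were lower (4.67% of all genes). Called higher were 0 members by edgeR (0% of all genes) and 0 by DESeq2 (0.0152% of all genes), while edgeR with no filter on low counts called 7 (0.269% of all genes), and the smallest adjusted p with the filter was 0.827 by edgeR. Not tested for low counts were *Slc22a2*, *Twist1*, *Bnc2* and *Dpep1*, none of which exceeded 0.768 CPM in a cortex.

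*Snx14*-KO replicate 2 had the highest value of the 6 cortices for 27 of 31 members with at least 30 read pairs in all. Over the 28 members tested in both tissues, the median ratio of a *Snx14*-KO cortex to the WT mean was 1.05 for replicate 1, 1.91 for replicate 2 and 1.05 for replicate 3. In cerebellum the same ratios were 1.96, 1.70 and 2.12, so there all 3 *Snx14*-KO mice were high. Without *Snx14*-KO replicate 2, 29 members were tested in cortex with a median log2 fold change of 0.14. Of the 28 tested with all 6 libraries, 25 then had a smaller log2 fold change and 8 were below 0. In that library the oligodendrocyte genes summed to 5507 CPM against 7749 to 8035 in WT cortices, the border macrophage genes to 30.01 CPM against 7.03 to 9.72, and *Gfap* was at 1047 CPM against 198, 147 and 174 in WT and 201 and 262 CPM in *Snx14*-KO replicates 1 and 3. The other 24 meningeal genes summed to 916, 744 and 812 CPM in WT and 1013, 1448 and 1019 CPM in *Snx14*-KO cortices, of which *Ptgds* alone was at 445, 345 and 433 CPM in WT and 563, 652 and 563 CPM in *Snx14*-KO cortices. Without *Ptgds* the remaining 23 summed to 471, 399 and 379.7 CPM in WT and 451, 796 and 456 CPM in *Snx14*-KO cortices, so that *Snx14*-KO replicate 2 was above every WT cortex and replicates 1 and 3 lay within the WT range. The brain endothelium genes summed to 245, 212 and 214 CPM in WT and 268, 286 and 248 CPM in *Snx14*-KO cortices. The pericyte and smooth muscle genes summed to 182.0, 132 and 167 CPM in WT and 189, 196 and 182.6 CPM in *Snx14*-KO cortices. Neither of these vessel sums overlapped between the genotypes, though the gaps were small. The part of these lists and of *Gfap* in the result was not tested.

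**Figure D5:**
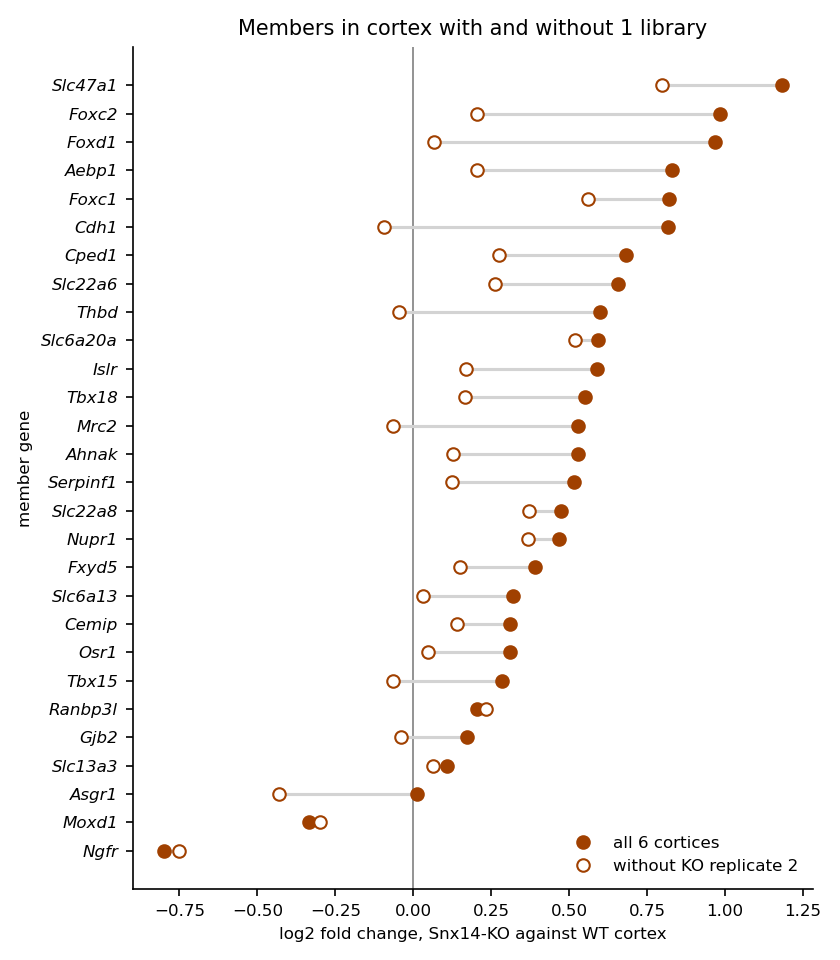
Log2 fold change of *Snx14*-KO against WT cortex for the 28 members tested there, with all 6 libraries and without *Snx14*-KO replicate 2. Most points move toward 0 when that library is left out, and 8 of the 28 are then below 0, against 2 with all libraries.

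A few members were higher in all 3 *Snx14*-KO cortices. *Slc22a8* was at 9.19, 8.11 and 7.91 CPM in WT and 11, 13.2 and 10.8 CPM in *Snx14*-KO cortices (log2 fold change 0.47, SE 0.141, adjusted p = 0.996, edgeR). Its log2 fold change without replicate 2 was 0.37. *Slc6a20a* was at 12, 9.45 and 11.9 CPM in WT and 15.9, 18.3 and 16 CPM in *Snx14*-KO cortices (log2 fold change 0.59, SE 0.133, adjusted p = 0.827, edgeR), and its log2 fold change was 0.52 without replicate 2. *Slc47a1* was at 4.04, 2.9 and 2.05 CPM in WT and 6.19, 9.93 and 4.29 CPM in *Snx14*-KO cortices, and the lowest *Snx14*-KO library was just above the highest WT library (log2 fold change 1.18, SE 0.313, adjusted p = 0.971, edgeR). *Foxc1* was at 3.61, 3.81 and 3.24 CPM in WT and 5.69, 8.28 and 4.83 CPM in *Snx14*-KO cortices (log2 fold change 0.82, SE 0.222, adjusted p = 0.971, edgeR), and without replicate 2 its log2 fold change was 0.56. *Nupr1* was at 6.0, 4.78 and 6.2 CPM in WT and 7.06, 8.83 and 7.57 CPM in *Snx14*-KO cortices (log2 fold change 0.47, SE 0.168, adjusted p = 0.996, edgeR). In these 5 genes *Snx14*-KO replicates 1 and 3 also exceeded every WT cortex.

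Other members stood out mainly in replicate 2. *Aebp1* was at 13.7, 9.88 and 12.5 CPM in WT and 12.4, 36.2 and 15.4 CPM in *Snx14*-KO cortices, and its log2 fold change of 0.83 became 0.20 without that library. *Thbd* was at 12.2, 14.1 and 14.2 CPM in WT and 13.9, 34.8 and 12.2 CPM in *Snx14*-KO cortices, and its log2 fold change of 0.60 became -0.046. *Mrc2*, at 9.35, 7.84 and 6.83 CPM in WT and 6.94, 19.1 and 8.41 CPM in *Snx14*-KO cortices, went from 0.53 to -0.064. Replicates 1 and 3 lay within the WT range for these 3 genes, apart from *Aebp1* in replicate 3, which was slightly above it. *Cdh1* was at 2.92, 1.66 and 2.85 CPM in WT and 2.31, 8.34 and 2.32 CPM in *Snx14*-KO cortices, *Foxd1* at 1.12, 0.805 and 1.14 CPM in WT and 1.13, 3.79 and 1.01 CPM in *Snx14*-KO cortices, and *Islr* at 15, 16.9 and 16.5 CPM in WT and 19.6, 36.2 and 16.7 CPM in *Snx14*-KO cortices. In each, replicate 2 was by far the highest of the 6 cortices, and of the remaining *Snx14*-KO values only that of *Islr* in replicate 1 exceeded every WT cortex. The pair that was lower in *Snx14*-KO cortices, *Moxd1* at 7.6, 6.82 and 8.31 CPM in WT and 6.19, 5.71 and 6.14 CPM in *Snx14*-KO cortices and *Ngfr* at 1.33, 1.18 and 1.2 CPM in WT and 0.625, 0.658 and 0.835 CPM in *Snx14*-KO cortices, did not follow replicate 2.

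By role, the median log2 fold change in cortex was 0.53 over 6 transporters, 0.69 over 6 transcription factors, 0.53 over 7 surface and secreted proteins, 0.50 over the junction pair and 0.39 over 7 others. Without *Snx14*-KO replicate 2 these medians were 0.37 over 7 transporters, of which *Slc22a2* was then also tested, 0.12 for the factors, 0.14 for the surface and secreted proteins, -0.067 for the junction pair and 0.13 for the others. The remaining members of those roles, *Slc22a6*, *Slc6a13*, *Slc13a3*, *Foxc2*, *Tbx18*, *Tbx15*, *Osr1*, *Serpinf1*, *Cemip*, *Cped1*, *Gjb2*, *Fxyd5*, *Ranbp3l*, *Ahnak* and *Asgr1*, had log2 fold changes from 0.011 (*Asgr1*) to 0.99 (*Foxc2*), and their groups overlapped. Without *Snx14*-KO replicate 2 the log2 fold change of *Asgr1* was -0.43 and that of *Foxc2* was 0.21. All 24 other meningeal genes were above 0 in cortex, with a median of 0.53, and DESeq2 called 1 of them (0.0152% of all genes called higher). Summed without *Ptgds*, only *Snx14*-KO replicate 2 was above every WT cortex, at 796 CPM against 451 and 456 CPM in replicates 1 and 3.

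An interaction term over the 12 libraries asked whether the *Snx14*-KO effect on a member was larger in cerebellum or in cortex. Of 31 members, 24 had the larger log2 fold change in cerebellum (49.1% of all 19380 genes tested), with a median difference of 0.53. Called were 0 by edgeR (0% of all genes), 0 by DESeq2 (0.178% of all genes) and 1 by edgeR with no filter on low counts, *Islr* (1.01% of all genes). With the filter, 7 had an unadjusted p under 0.05, all larger in cerebellum (3.97% of all genes), namely *Slc22a2*, *Slc22a8*, *Slc6a13*, *Slc13a3*, *Tbx15*, *Moxd1* and *Ranbp3l*. That count depended on single libraries. It was 2 without WT replicate 1 of cortex, 3 without WT replicate 3 or *Snx14*-KO replicate 1 of cerebellum or *Snx14*-KO replicate 3 of cortex, and 4 without WT replicate 1 of cerebellum or *Snx14*-KO replicate 1 of cortex. It was 11 without WT replicate 2 of cerebellum and 15 without *Snx14*-KO replicate 2 of cortex, and 6 to 10 without any of the other libraries, while the share of all genes ranged from 2.88% to 5.42%. *Slc22a8* had a difference of 0.69 on the log2 scale (SE 0.213, edgeR adjusted p = 0.526), *Slc13a3* of 0.49 (SE 0.171, edgeR adjusted p = 0.641) and *Tbx15* of 1.21 (SE 0.494, edgeR adjusted p = 0.785). Neither edgeR with the filter on low counts nor DESeq2 showed a difference between the tissues for a single member. Without *Snx14*-KO replicate 2 of cortex, the median difference was 0.82 and 30 of 31 members leaned to cerebellum.

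WT cerebellum and WT cortex were compared to see where the members sit without the deletion. Of 29 members tested, 8 were higher in cerebellum past both thresholds (19% of all 18543 genes) and 1 was lower (21.4% of all genes), with a median log2 fold change of 0.15. *Asgr1* was at 17.3, 15.9 and 17.7 CPM in WT cerebella and 1.17, 0.698 and 0.854 CPM in WT cortices, by far the widest gap among the members (log2 fold change 4.22, SE 0.193, adjusted p = 2.24e-08, edgeR). *Cdh1* was at 16, 20.7 and 17.2 CPM in cerebellum and 2.92, 1.66 and 2.85 CPM in cortex (log2 fold change 2.86, SE 0.209, adjusted p = 8.76e-07, edgeR). *Ngfr* was at 3.61, 6.17 and 6.93 CPM in cerebellum and 1.33, 1.18 and 1.2 CPM in cortex (log2 fold change 2.17, SE 0.281, adjusted p = 7.31e-05, edgeR), and *Slc13a3* at 31.4, 29.1 and 25.5 CPM in cerebellum and 13.6, 15.5 and 14.9 CPM in cortex (log2 fold change 0.97, SE 0.107, adjusted p = 2.17e-05, edgeR). In these 4 genes the tissues were clearly apart. *Twist1* (1.43), *Slc6a20a* (0.72), *Slc6a13* (0.66) and *Ahnak* (0.52, log2 fold changes) also passed, but none of these 4 did so without WT cerebellum replicate 2. *Fxyd5* was the gene that was lower in cerebellum (log2 fold change -0.81, SE 0.219, adjusted p = 0.00895, edgeR). Without WT cerebellum replicate 2 the counts were 4 higher and 4 lower, with *Islr*, *Moxd1* and *Thbd* added to the lower ones, where 18.1% of all genes were called higher and 21.1% lower. Without WT cortex replicate 1 they were 5 higher and 2 lower (18% and 20.6% of all genes), and without WT cortex replicate 2 or 3 they were 5 higher (17.8% and 17.6% of all genes) and 1 lower (20.6% and 20.5%). With no filter on low counts they were 9 higher and 3 lower (12.2% and 14.2% of all genes). With the animal as a block, *Slc6a13* (adjusted p = 0.0638 by edgeR) and *Ahnak* (log2 fold change 0.49) no longer passed and *Thbd* did (log2 fold change -0.57). Of all genes, 18.9% were then called higher and 21.3% lower in cerebellum. The other 20 members did not pass, and of these *Slc22a8* was at nearly equal levels in both tissues, with a log2 fold change of 0.03 (SE 0.174).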

How the data were processed

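Total RNA of 12 mouse samples was sequenced from libraries that the labels ascribe to a NEBNext Ultra RNA kit, and the methods call strand-specific. The authors mapped the reads to GRCm38 (mm10) with STAR, counted read pairs on GENCODE vM21 genes with featureCounts (Subread 2.0.1, ignoring strand, a pair counted for every gene it overlaps, multi-mapping reads left out) and deposited raw counts. The submitters' processing notes also name DESeq2 1.38.3. A further 0.0506 to 0.0632% of counts were on features other than genes and were left out.

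Genes were filtered with filterByExpr, scaled by TMM and tested with edgeR 4.0.16's quasi-likelihood test (R 4.3.3, limma 3.58.1, Benjamini-Hochberg adjustment over all genes tested). Calls needed a log2 fold change beyond 0.5 in either direction together with an adjusted p below 0.05. The script was tested on simulated data. Alternatives were DESeq2 1.42.0, DESeq2's size factors, no filter, a replicate block (the mouse number, or the animal where tissues are compared), all 12 libraries in 1 fit and leaving out each library. The labels give the same mouse numbers in both tissues, and deviations of a mouse's 2 libraries correlated at 0.077 to 0.11 in WT and 0.025 to 0.30 in *Snx14*-KO mice. The members and lists were chosen with earlier results of these data known. All 32 members are named, and from other lists at most the 3 genes with the smallest p in cerebellum. Replicates differed by more than sampling noise (chi-square per gene of 6 or more), so no library was a repeat of another. CPM values cover sampling of 16672589 to 19887427 counts per library, and the few read pairs of rare members limit their precision.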

Additional observations from a re-analysis of the deposited data

How the results depend on the processing

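In cerebellum the count of members called moved from 0 to 13 with DESeq2, where 0.846% of all genes were called higher. It was 20 with no filter on low counts (1.05% of all genes called higher). With all 12 libraries in 1 fit it was 1 (0.132%). Leaving out 1 library at a time gave 0 to 9, with a median log2 fold change of 0.92 to 1.28. The 9 came without *Snx14*-KO replicate 2 (1.31% of all genes called higher) and 1 came without WT replicate 2 (0.0481%). In cortex no filter gave 7 members (0.269% of all genes called higher), and the median ranged from 0.14 to 0.668 with 1 library left out. For the tissue difference, no filter gave 1, *Islr* (1.01% of all genes called higher), and the median ranged from 0.32 to 0.82. In WT tissue, leaving out 1 library gave 6 to 11 members called and medians of -0.052 to 0.34. In those runs 17.6% to 19% of all genes were called higher in cerebellum and 20.5% to 21.3% lower. *Slc13a3*, *Cdh1*, *Ngfr*, *Asgr1* and *Fxyd5* were called there in every alternative run. Without WT cerebellum replicate 2, *Slc6a13* (0.40, adjusted p = 0.18), *Slc6a20a* (0.44, adjusted p = 0.147), *Twist1* (1.19, adjusted p = 0.0642) and *Ahnak* (0.26, adjusted p = 0.0763) lost their edgeR calls, and each also lost its call without 2 to 4 of the other libraries, 1 at a time.

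Mouse numbers of WT and *Snx14*-KO libraries share only a number (correlations of their deviations from -0.043 to 0.11). A replicate block on them left 0 members called in either tissue, and a block by animal left 0 called for the tissue difference and 8 between WT tissues. With the block, the log2 difference became -0.024 for *Asgr1* in cortex, and the tissue difference became 0.0099 for *Nupr1* and 0.031 for *Serpinf1*. With no filter on low counts the tissue difference of *Nupr1* was 0.0044.

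The log2 fold changes of some members changed sign when 1 library was left out. The ranges in cerebellum were -0.067 to 0.14 for *Cemip*, -0.29 to 0.14 for *Ngfr* and -0.091 to 0.42 for *Twist1*. In cortex they were -0.43 to 0.28 for *Asgr1*, -0.10 to 1.12 for *Cdh1*, -0.039 to 0.29 for *Gjb2*, -0.064 to 0.78 for *Mrc2*, -0.066 to 0.51 for *Tbx15* and -0.046 to 0.86 for *Thbd*. For the tissue difference they were -0.42 to 0.21 for *Ahnak*, -0.49 to 0.23 for *Asgr1*, -0.52 to 0.89 for *Bnc2*, -0.87 to 0.35 for *Cdh1*, -0.046 to 1.06 for *Foxc2*, -0.065 to 1.14 for *Foxd1*, -0.14 to 0.21 for *Nupr1*, -0.23 to 0.35 for *Serpinf1*, -0.12 to 0.61 for *Slc47a1* and -0.48 to 0.12 for *Twist1*. Between WT tissues they were -0.052 to 0.85 for *Foxc2*, -0.19 to 0.34 for *Gjb2*, -0.10 to 0.21 for *Mrc2*, -0.22 to 0.13 for *Nupr1*, -0.65 to 0.29 for *Osr1*, -0.32 to 0.041 for *Ranbp3l*, -0.036 to 0.37 for *Slc22a6* and -0.079 to 0.19 for *Slc22a8*. With all libraries and the filter on low counts, edgeR called none of these genes in the comparison named, and the causes were not tested.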

Other observations

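The paralogs of the member transporters and factors, 19 genes, were examined beside them. Only 9 had enough counts to be tested in cerebellum, with a median log2 fold change of 0.28, against 1.11 for the members. *Slc6a12*, the betaine and GABA transporter next to *Slc6a13* in its family, was at 3.22, 2.71 and 2.04 CPM in WT and 5.93, 4.08 and 6.93 CPM in *Snx14*-KO cerebella (log2 fold change 1.1, edgeR adjusted p = 0.236). *Slc13a5*, a citrate transporter, was at 16.2, 14.6 and 12.8 CPM in WT and 16.8, 22.7 and 21 CPM in *Snx14*-KO cerebella. *Slc6a11*, the GABA transporter of astrocytes, split the *Snx14*-KO cerebella, at 73.3, 69.7 and 66.6 CPM in WT and 188, 64.6 and 197 CPM in *Snx14*-KO mice. Replicate 2 was below every WT library while replicates 1 and 3 were far above.

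Choroid plexus genes summed to 367, 4443 and 11319 CPM in the WT cerebella, so these 3 samples differed more in that epithelium than in any member role. Erythroid genes had a median log2 fold change of -0.59 in cerebellum and -0.46 in cortex. The 4 epidermal and other epithelial genes had too few counts to be tested in either tissue, of the 6 Schwann cell genes 3 were tested in cerebellum (median -0.045), and of the 7 skull bone and skeletal muscle genes 3 (median 0.0082). The median in cerebellum was -0.11 over 6 ependymal genes, -0.14 over 8 oligodendrocyte genes, -0.19 over 10 cerebellar neuron genes and -0.017 over the 5 forebrain neuron genes tested, of which *Nrgn* stood apart with 4.33. As for *Slc6a11*, replicates 1 and 3 were the high *Snx14*-KO libraries for *Nrgn*.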
